A study of Mus musculus with 6 samples.

Results

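The libraries described here are the 2 Trpm4 knockout libraries taken 24 h after surgery, 1 from hearts with the left anterior descending coronary artery tied off (ligation) and 1 from sham-operated hearts. Both come from knockout mice of the strain labelled B6.Cg-Trpm4tm1.2-PG. Each library pools the ventricular non-cardiomyocytes of 4 male mice aged 8 to 12 weeks. The whole series holds 6 such pooled libraries, with wild-type C57BL/6JRj mice in the same 2 conditions and a 72 h ligation library for each genotype. Hearts were digested with thermolysin and papain, passed through mesh and sorted for live single cells before droplet capture, so what is measured are the cells that survived these steps. Cells with at least 200 detected genes and at most 20% mitochondrial UMIs (unique molecular identifiers, 1 per captured transcript) passed, which gave 5975 sham and 6959 ligation cells, 12934 of the 33738 that passed in the series. After removal of likely doublets, 5657 sham and 6559 ligation cells were kept. With 1 pool per condition there are no replicates, so no difference was tested: all intervals below are 95% intervals that cover counting error only, not the variation between mice, surgeries or preparations.

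Ligation of this artery starves the wall of the left ventricle of oxygen. Dying muscle releases signals that draw neutrophils from the blood within hours, followed by Ly6C-high monocytes that become macrophages, while resident macrophages in the injured wall are lost. Endothelial cells answer low oxygen through HIF-driven genes for glycolysis and vessel growth, and fibroblasts turn from matrix upkeep to a secretory, inflammatory and later matrix-building state. TRPM4 is a calcium-activated channel for monovalent cations that is present in cardiac, vascular and immune cells.

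Trpm4 itself was counted in every library. Over all deposited cells it reached 6.2 CPM (UMIs per 1000000 UMIs; 215 UMIs, interval 5.4 to 7.08) in knockout sham and 3.46 CPM (140 UMIs, 2.91 to 4.08) in knockout ligation. The wild-type sham and 24 h ligation libraries had 8.79 (7.83 to 9.84) and 5.52 CPM (4.61 to 6.57), and the 72 h libraries had 4.29 CPM in wild type and 2.57 CPM in knockout. Over all deposited cells the knockout level was therefore below the wild-type level at each time but not near 0. Neutrophil-like cells, named as described below, held 0 to 0.478 CPM, and their share differed between libraries. The part of this in the values was not tested. In sham endothelial-like cells the level was 6.64 CPM (5.29 to 8.23) in knockout and 10.8 (8.74 to 13.2) in wild type. In sham monocyte/macrophage-like cells the intervals overlapped, at 5.9 (4.41 to 7.74) and 6.97 CPM (5.52 to 8.69). At 24 h of ligation they overlapped in endothelial-like cells instead. The labels do not give which part of the gene the allele lacks, and a 3′ count may lie outside it, so these counts do not check the genotype.

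Over all kept cells the median was 3812 UMIs in sham and 3075 after ligation, and the median mitochondrial share was 5.67% and 0.596%. Within classes, median UMIs were higher after ligation in neutrophil-like (2164 and 2513), monocyte/macrophage-like (9694.5 and 11235) and fibroblast-like cells (8784 and 9723). They were lower in endothelial-like cells (3406 and 2715). Only 13 cell barcodes were shared by both libraries. Cells were clustered over all 6 libraries and named from marker genes. The names are rebuilt, not the authors'. Marker RNA of other cell types differed between the libraries, and whether it came from free RNA, doublets or mixed cells was not tested. The summed level of 10 neutrophil marker genes was higher after ligation in cells that should lack them, at 171 CPM in sham and 2816 CPM in ligation endothelial-like cells, 35 and 1017 CPM in fibroblast-like cells, and 499 and 2997 CPM in monocyte/macrophage-like cells. The 10 endothelial marker genes were lower after ligation in these leukocytes and fibroblasts, from 1185 to 251 CPM in monocyte/macrophage-like and from 1053 to 352 CPM in fibroblast-like cells, but not in smooth muscle-like cells (2013 and 3010 CPM). Cardiomyocyte markers in endothelial-like cells stayed at 327 and 323 CPM. Because of this, each count of genes is given for all measured genes and again for genes whose level in the class, in the library where they were higher, was at least 0.25 of the level in the class where they were highest. That second set, called own-class genes below, was added after seeing the data.

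**Figure D1:**
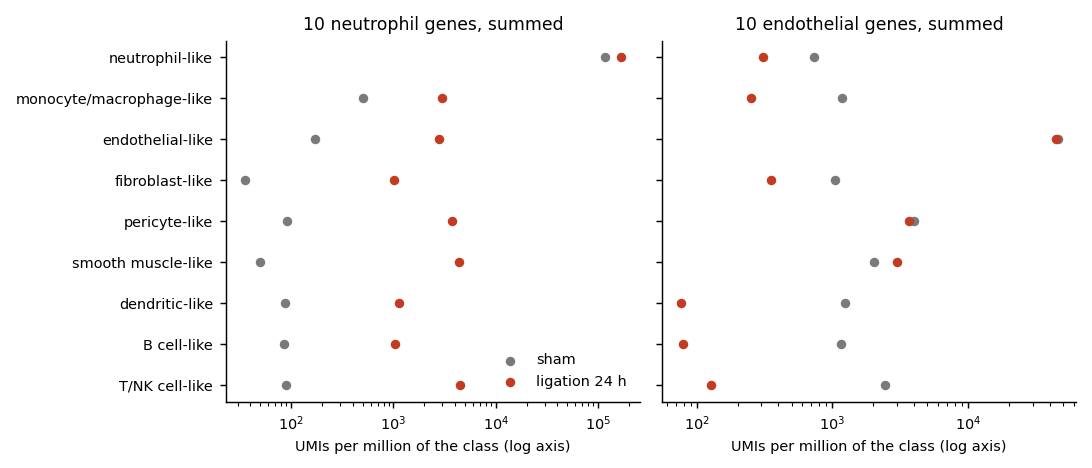
Summed level of 10 neutrophil genes (left) and 10 endothelial genes (right) in each cell class of the 2 knockout libraries, in CPM on a log axis, sham in grey and ligation in red. Outside neutrophil-like cells the neutrophil genes are higher after ligation in every class shown, from 35 to 1017 CPM in fibroblast-like cells for example.

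The makeup of the kept cells differed widely between the libraries. Leukocytes were 28.9% of kept cells in sham (interval 27.7 to 30.1) and 80.6% after ligation (79.6 to 81.5), a difference of 51.7 percentage points. Neutrophil-like cells made up most of this, at 11.8% in sham (669 of 5657 cells) and 51.8% after ligation (3399 of 6559). Monocyte/macrophage-like cells went from 14.7% to 23.4%, B cell-like cells from 0.654% to 1.84% and T/NK cell-like cells from 0.477% to 1.37%. Endothelial-like cells fell from 54.5% to 11.7% of kept cells, fibroblast-like cells from 8.15% to 2.85% and smooth muscle-like cells from 4.03% to 0.991%. All of these differences are larger than counting error. They moved with the cell filter: with at most 10% mitochondrial UMIs the difference was 3.32 rather than 8.69 points for monocyte/macrophage-like cells and -8.68 rather than -5.3 points for fibroblast-like cells.

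Shares add to a whole, so the same cells were also counted within leukocytes and within the rest. Among leukocytes, neutrophil-like cells went from 40.9% to 64.3% and monocyte/macrophage-like cells from 51.0% to 29.1%. Among the non-leukocytes, endothelial-like cells went from 76.7% to 60.3%, while fibroblast-like cells went from 11.5% to 14.7% and pericyte-like cells from 2.01% to 6.51%. Smooth muscle-like cells were 5.67% and 5.1% of non-leukocytes, a difference within counting error (interval of the difference -1.89 to 0.94 points). The fall of stromal shares among all cells therefore did not hold for each stromal class among the non-leukocytes. Cell shares depend on what the digestion and the sort let through, and fewer cells of a class cannot be told apart from fewer cells released. The wild-type pair moved in the same directions for neutrophil-like cells (16.8% to 34.3%) and endothelial-like cells (44.6% to 21.9%), while its monocyte/macrophage-like share was 20.4% and 20.7%.

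**Figure D2:**
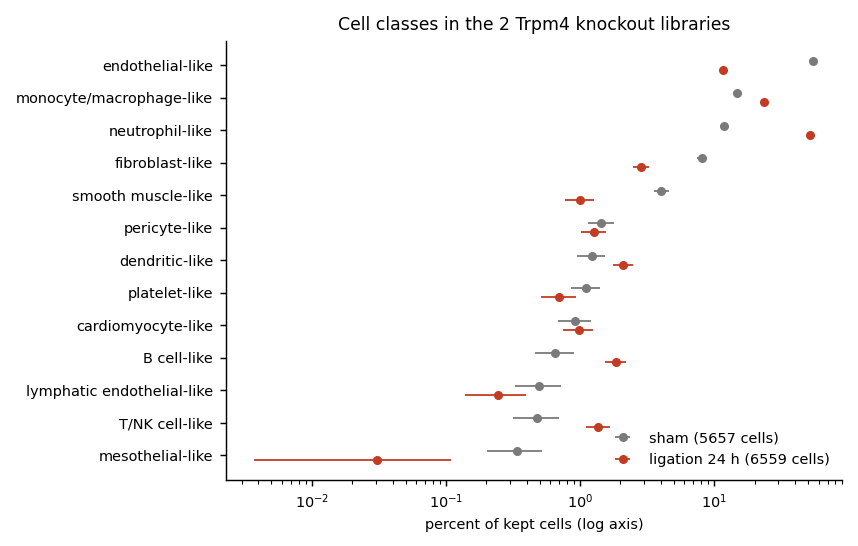
Share of kept cells in each class, in percent on a log axis, in the sham (grey) and ligation (red) knockout libraries; lines are 95% exact binomial intervals, which cover counting error only. Neutrophil-like cells go from 11.8% to 51.8% and endothelial-like cells from 54.5% to 11.7%.

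The 4 classes with at least 100 cells in both libraries were compared gene by gene, on UMIs summed over the cells of the class; a gene with at least 50 UMIs over the pair was measured, and called when it differed at least 2-fold. In neutrophil-like cells 191 of 7016 measured genes were at least 2-fold higher after ligation (2.72%) and 262 lower (3.73%); among own-class genes the shares were 2.42% and 2.66%. In monocyte/macrophage-like cells 165 of 10197 genes were higher (1.62%) and 774 lower (7.59%), and among own-class genes 1.16% and 4.23%. In endothelial-like cells 389 of 10221 were higher (3.81%) and 167 lower (1.63%), and among own-class genes 1.97% and 1.29%. In fibroblast-like cells 389 of 9328 were higher (4.17%) and 909 lower (9.74%), and among own-class genes 3.84% and 8.62%. The median gene stood at a log2 ratio of -0.19, -0.28, 0.02 and -0.21 in the 4 classes in that order. Centring on it moved the share of called genes that were higher from 42.2% to 67.3% in neutrophil-like, from 17.6% to 40.6% in monocyte/macrophage-like and from 30.0% to 52.7% in fibroblast-like cells. In these 3 classes the balance of higher against lower genes thus depends on the scaling; in endothelial-like cells it was 70.0% and 68.1%, but with at most 10% mitochondrial UMIs that class had 141 higher and 244 lower genes.

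**Figure D3:**
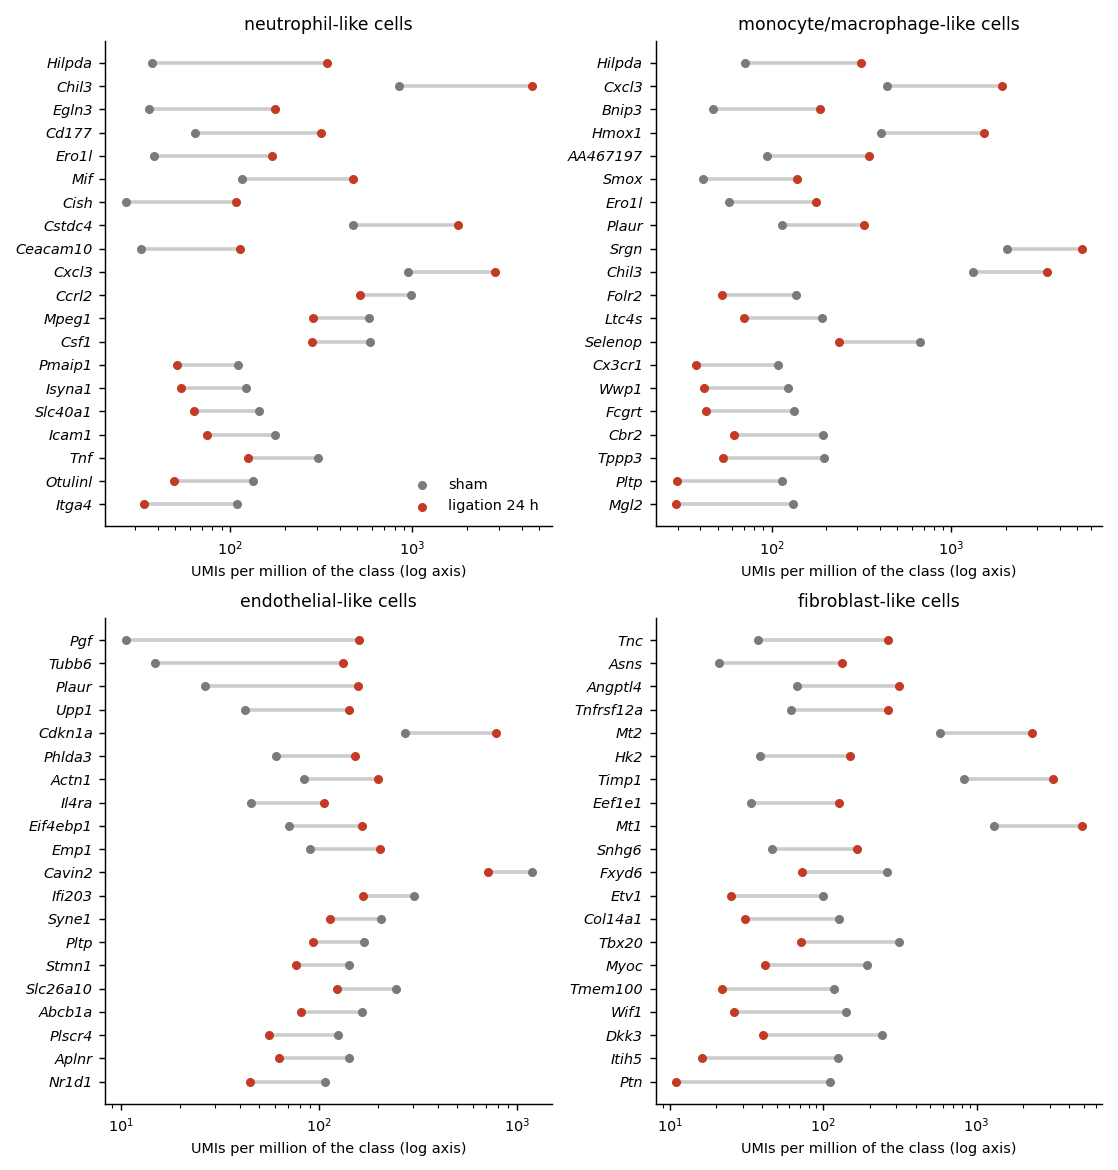
The 10 highest-ranked genes in each direction in the 4 classes, with the level in sham (grey) and after ligation (red) in CPM on a log axis. Levels run from 10.6 to 160 CPM for Pgf in endothelial-like cells and from 111 to 10.9 CPM for Ptn in fibroblast-like cells.

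Between 8 and 11 measured genes of low oxygen and glycolysis were at least 2-fold higher after ligation in each of the 4 classes, and none was at least 2-fold lower in any class. Of 26 genes in that list, 8 of 24 measured were at least 2-fold higher in neutrophil-like cells (median log2 ratio 0.81), 11 of 25 in monocyte/macrophage-like cells (0.95), 8 of 23 in endothelial-like cells (0.77) and 11 of 23 in fibroblast-like cells (0.82). Over all measured genes, 2.72%, 1.62%, 3.81% and 4.17% were at least 2-fold higher in these classes, in the same order. Among own-class members the counts were 7 of 21, 8 of 22, 2 of 14 (Gapdh and Adm) and 9 of 17. Most endothelial-like calls were thus of genes far higher in another class. Over all own-class genes the shares were 2.42%, 1.16%, 1.97% and 3.84%. Pgk1, a glycolytic kinase, was at least 2-fold higher in all 4 classes: it went from 126 to 274 CPM in neutrophil-like, 447 to 927 in monocyte/macrophage-like, 72.1 to 192 in endothelial-like and 146 to 297 CPM in fibroblast-like cells. Slc2a1, the glucose transporter GLUT1, went from 44.7 to 123 CPM in monocyte/macrophage-like cells, from 6.08 to 40.6 in endothelial-like and from 9.13 to 57.2 CPM in fibroblast-like cells, and in neutrophil-like cells from 107 to 164 CPM, under 2-fold. Ero1l, an oxidase of protein folding that answers hypoxia, was 4.41-fold higher in neutrophil-like and 3.06-fold higher in monocyte/macrophage-like cells, and its level in fibroblast-like cells was 22.9 CPM in sham and 110 CPM after ligation. Hif1a transcript itself was close to unchanged, with log2 ratios of 0.01, -0.07, 0.51 and -0.03. Oxidative phosphorylation genes of the nucleus were a contrast to this list, with 0 of 30 past 2-fold in any direction in each of the 4 classes and medians between -0.23 and 0.24. Classes hold several clusters whose shares differed between the libraries, so values were also taken within the clusters that had enough cells in both. There the medians of the hypoxia and glycolysis list were 0.32 and 0.46 in neutrophil-like clusters, 0.41 to 1.13 in monocyte/macrophage-like clusters, 0.35 to 1.75 in endothelial-like clusters and 0.34 in the main fibroblast-like cluster. In that fibroblast-like cluster 0 of 20 members passed 2-fold and Pgk1 stood at a log2 ratio of 0.01. Shares over all genes within clusters are not given here.

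The 250 bases before the annotated start of each gene (RefSeq, GRCm38.p6) were searched for ACGTG on either strand (CACGT on the other). This is a core sequence of the hypoxia-response element, and no other form of the core was searched. RefSeq entries were found for 24 of the 26 genes. The core was present in 17 of their 33 promoters (51.5%), against 16.6% of all 32851 promoters. Counted by gene, it was present in 15 of 24 (62.5%). The count covers the whole chosen list, not the genes that changed, so it does not bear on the ligation values. A match is a description of letters, not evidence of binding. Only matches whose surrounding 29 bases lay within the 250 could be shown, so a match closer to the gene start was passed over. Of these, the match nearest the gene start is shown for 5 genes that were at least 2-fold higher in 2 or more classes. The 29 bases are given with the core in capitals, 5′ to 3′ on the gene's strand.
Pgk1, chrX:106186957-106186985 (+): aaatggaagtagCACGTctcactagtctc
Slc2a1, chr4:119108697-119108725 (+): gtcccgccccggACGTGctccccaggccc
Slc16a3, chr11:120949028-120949056 (+): caggcagcggtgACGTGcgcgggggacgt
Bnip3, chr7:138909597-138909625 (-): cgcacgcgccgCACGTGccacacgctccc
Egln3, chr12:54204087-54204115 (-): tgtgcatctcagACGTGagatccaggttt
In Bnip3 the core reads on both strands at once. ACGTG was not found on either strand in this window for Tpi1, Pfkl, Eno1, Adm or Higd1a. These were also at least 2-fold higher in 2 or more classes, and other forms of the core were not searched in them.

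**Figure D4:**
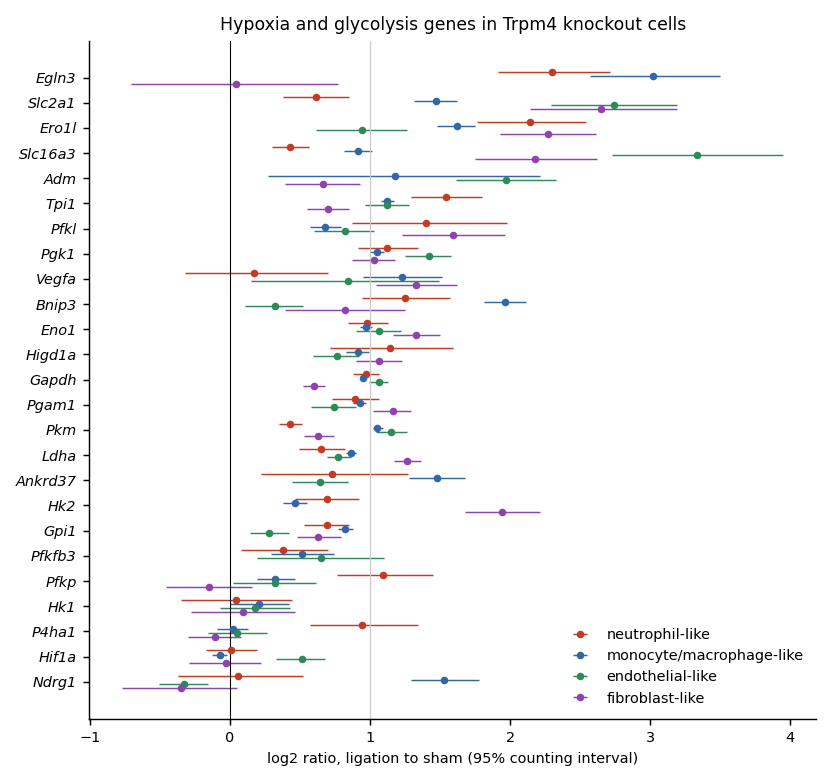
Log2 ratio of ligation to sham for each measured gene of the hypoxia and glycolysis list, 1 point per class, with 95% counting intervals; the grey line marks 2-fold. Most points lie right of 0, and Pgk1 is past 2-fold in all 4 classes, from 1.03 to 1.42.

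In neutrophil-like cells the genes highest ranked as higher after ligation included Hilpda, Chil3, Mif and Cxcl3. Hilpda, which stores lipid under low oxygen (chromosome 6, 29272488 to 29275446, mm10), went from 37.1 to 341 CPM, 9.2-fold (log2 3.2, interval 2.82 to 3.61), and 27.4% of the cells held a UMI after ligation against 4.93% in sham; thinned to 1500 UMIs per cell the shares were 21.3% and 3.24%. No class lacks Hilpda; in endothelial-like cells the unthinned shares were 7.33% and 13%. Chil3, a chitinase-like secreted protein, went from 848 to 4541 CPM (5.35-fold), and Mif, a cytokine, from 116 to 476 CPM. Cxcl3, a ligand of the neutrophil receptor CXCR2, went from 944 to 2856 CPM. Cd177, a neutrophil surface protein, Egln3, an oxygen-sensing hydroxylase, Cstdc4, Cish and Ceacam10 were 3.49- to 4.91-fold higher. The same 5 genes lead a cluster that held 1.79% of neutrophil-like cells in sham and 33.0% after ligation. Within the 2 other clusters large enough to compare, the log2 ratio was 0.71 to 0.89 for Cd177 and 0.29 to 0.54 for Cstdc4, below their class values of 2.29 and 1.92. Hilpda stood at 2.05 to 2.97 there.

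The granule and alarmin list was mixed, set beside 2.72% of all measured genes in neutrophil-like cells at least 2-fold higher and 3.73% lower. Of 15 genes, 6 were at least 2-fold higher, among them Lcn2 (1994 to 4900 CPM), the collagenase Mmp8 (215 to 491), Retnlg and Wfdc21, and 3 were lower (Ltf, Camp and Ngp). Those 3 are secondary granule genes made in the marrow, and their sham level came mainly from 1 barcode: it held 79.1% of the Ltf UMIs, 99.5% of the Camp UMIs and 89.2% of the Ngp UMIs. S100a8 and S100a9, the calprotectin subunits, went from 50683 to 79927 and from 57050 to 75676 CPM, under 2-fold. Il1b stayed at 12266 and 11988 CPM.

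Genes ranked lower in neutrophil-like cells after ligation included adhesion and activation genes. Itga4, an integrin chain, went from 109 to 33.8 CPM (3.21-fold lower), Icam1 from 176 to 75.1 CPM, Tnf from 304 to 125 CPM, and the growth factor Csf1 from 584 to 282 CPM. Itgax was also lower (log2 ratio -1.44). Of 15 maturation and activation genes 3 were at least 2-fold lower and 0 higher, against 3.73% of all measured genes lower. Their median log2 ratio was -0.34, against -0.19 over all genes in this class. Of 17 inflammatory cytokine and NF-kB feedback genes 2 were lower and 1 higher (median -0.27), against 3.73% and 2.72% of all measured genes. The higher gene was Osm, from 332 to 948 CPM. Within clusters, Tnf and Ccrl2 were not lower in both: Tnf had log2 ratios of -0.41 to 0.10. Icam1 (-0.97 to -0.15) and Csf1 (-0.75 to -0.46) were lower in both clusters, but under 2-fold in each. Itga4 stood at -1.40 to -0.93. The cluster led by Tnf, Siglecf and Ccrl2 held 50.4% of these cells in sham and 14.3% after ligation. Among interferon-induced genes only Ifit1 of 20 passed 2-fold. The count of 262 lower genes was 551 without doublet removal and 140 when cells were thinned to 1500 UMIs.

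In monocyte/macrophage-like cells Hmox1, Hilpda, Bnip3 and Plaur were among the highest-ranked genes after ligation, and 9 of 20 genes of resident macrophages were at least 2-fold lower. Hmox1, the enzyme that breaks down heme, went from 408 to 1518 CPM (3.72-fold; log2 1.90, 1.85 to 1.95), with log2 ratios from 0.85 to 2.46 in all 4 clusters compared. It was the only 1 of 11 measured heme and iron genes past 2-fold, and the median of that list was 0.10 (-0.17 as a mean over cells). Of all measured genes in this class 1.62% were higher and 7.59% lower. Hilpda went from 70.7 to 316 CPM and Bnip3, a mitophagy receptor, from 47.5 to 185 CPM. Plaur, the urokinase receptor, went from 114 to 327 CPM, Cxcl3 from 437 to 1909 CPM, and Smox, a polyamine oxidase, from 41.3 to 138 CPM. Srgn, a granule proteoglycan, was 2.63-fold higher at 5331 CPM, and AA467197 3.68-fold. All 10 were higher in each of the 4 clusters, at times slightly (Plaur 0.06 to 2.13). Cells that held a Hilpda UMI were 24.1% in sham and 55.8% after ligation, or 7.31% and 25.8% when thinned.

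Of 20 resident macrophage genes 9 were at least 2-fold lower and 0 higher (median log2 ratio -0.92, against -0.28 over all genes in this class). Among own-class members 6 of 16 were lower. Of all measured genes in this class 7.59% were lower, and of all own-class genes 4.23%. Cbr2, a carbonyl reductase, went from 194 to 61.4 CPM, Selenop, a selenium carrier, from 672 to 238, Folr2, the folate receptor beta, from 136 to 53, and Cx3cr1, the fractalkine receptor, from 108 to 38.1 CPM. Timd4, Vsig4, Igf1, Gas6 and Lyve1 were the other 5, with log2 ratios from -3.32 to -1.87. Mgl2, a lectin outside this list, ranked first among lower genes at 131 and 29.4 CPM. Many of these genes define the cluster led by Mgl2, Cbr2 and Cd163, which held 26.6% of the class in sham and 7.22% after ligation. Inside that cluster Mgl2 stood at -0.75 and Selenop at -1.21, and the list had 4 of 20 genes past 2-fold with a median of -0.46. In the clusters led by Ccl24 and by Ear2 the list median was 0.32 and 0.28, with Folr2 at 0.48 (0.21 to 0.76) in the first. In the cluster led by Ccl2, Ccl7 and Arg1, which held 202 sham and 822 ligation cells, it was -0.29, with 1 of 15 genes higher and 2 lower. Cx3cr1 was lower in all 4 clusters (-1.56 to -1.16). Of 17 measured proliferation genes 10 were at least 2-fold lower, against 7.59% of all measured genes. Mki67 stood at 17.4 and 2.78 CPM and Cenpf at 21.2 and 0.628 CPM. Few cells carried these genes, as Mki67 was found in 30 sham and 28 ligation cells. The cycling cluster, led by Ube2c, Birc5 and Top2a, held 19 sham and 2 ligation cells of the class.

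Genes of infarct macrophages and repair had a median log2 ratio of 0.54. Arg1, which consumes arginine, went from 2288 to 3604 CPM and Spp1, osteopontin, from 4826 to 7427 CPM; of 22 genes 4 were at least 2-fold higher, among them Chil3 (1311 to 3420 CPM), Slc7a11 and Vegfa, and 1 lower, Gpnmb. Over all measured genes in monocyte/macrophage-like cells 1.62% were higher and 7.59% lower. Ccl2, the main ligand of CCR2, went from 3313 to 5182 CPM. The cluster led by Ccl2, Ccl7, Arg1 and Spp1 held 24.2% of the class in sham and 53.5% after ligation. Inside it the repair list had a median of 0.10, with 4 of 22 genes at least 2-fold higher and 2 lower. The list of monocyte-attracting chemokines and receptors had a median of -0.07 there, with 0 of 12 genes higher and 1 lower. In the Ccl24-led cluster the repair list median was 0.26, with 2 of 19 genes higher and 0 lower. Of 9 MHC class II genes 4 were at least 2-fold lower (H2-Aa, H2-Ab1, H2-Eb1 and Ciita), against 7.59% of all measured genes. Only Ctss of the 9 met the own-class rule. The list median was -1.28 in the Mgl2-led cluster and 1.53 in the Ccl24-led cluster, opposite in direction. Il6 and Tnf did not pass 2-fold in this class (log2 ratios -0.49 and 0.21). Neutrophil marker RNA in this class went from 499 to 2997 CPM, as given above, and its part in neutrophil-type genes was not tested.

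In endothelial-like cells the highest-ranked genes after ligation were Pgf, Tubb6, Plaur, Upp1 and Cdkn1a, in that order. Pgf, placental growth factor, went from 10.6 to 160 CPM (15.1-fold; log2 3.92, 3.63 to 4.22), and 9.38% of cells held a UMI after ligation against 1.65% in sham, or 7.17% and 0.827% thinned. In neutrophil-like cells 0.235% held one after ligation. Apln, a tip-cell ligand, went from 15 to 97.4 CPM, while its receptor Aplnr went from 142 to 62.6 CPM. Angpt2 went from 12.9 to 55.9 CPM and Adm, adrenomedullin, from 12.2 to 47.6 CPM. Of 22 angiogenesis and tip genes 5 were at least 2-fold higher and 1 lower, against 3.81% and 1.63% of all measured genes. Kdr and Flt1 stood at log2 ratios of -0.21 and -0.20. Plaur was 5.92-fold higher, Tubb6, a tubulin, 8.91-fold, Upp1 3.35-fold. Pgf and Apln lead a cluster that held 7.33% of endothelial-like cells in sham and 21.2% after ligation, and inside it Pgf had a log2 ratio of 2.65 (2.34 to 2.98) and Apln of 1.53.

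Cdkn1a, the p21 cell-cycle inhibitor, went from 273 to 782 CPM (2.86-fold) and was higher in all 4 endothelial-like clusters compared (1.0 to 2.14). Phlda3, Gadd45g and Gdf15 were the other own-class p53 or arrest genes at least 2-fold higher. Gdf15 went from 2.32 to 56.3 CPM, in 22 ligation cells with 36.8% of its UMIs in 1. Phlda3 was higher in 2 of 3 clusters (-0.17 to 1.64). In the p53 and arrest list 6 of 15 genes were higher and 0 lower (median 0.54), against 3.81% of all measured genes higher. In the 2 largest clusters 1 of 13 was higher in each (medians -0.15 and 0.15), and 1 was lower in the second. In the cluster led by Apln and Pgf 6 of 9 were higher (median 1.35). Clock genes were lower. Nr1d1, the REV-ERB alpha repressor, went from 107 to 45.2 CPM, Dbp from 59.8 to 13.7 and Per3 from 23.4 to 6.63 CPM. Of 12 measured, 6 were at least 2-fold lower and 0 higher, against 1.63% of all measured genes lower. In each of the 2 largest clusters 5 of 10 were lower. This was not particular to endothelial-like cells. In fibroblast-like cells 6 of 15 clock genes were lower (9.74% of all genes), in monocyte/macrophage-like cells 5 of 12 (7.59%). In neutrophil-like cells 1 of 5 was lower. In wild-type endothelial-like cells 7 of 12 were lower and 2 higher. Angptl4, a lipase inhibitor, went from 33.9 to 84.5 CPM, while Fabp4, a fatty acid carrier, stood at 29628 and 28270 CPM. Vcam1, a leukocyte adhesion molecule, went from 73.4 to 132 CPM, and Icam1 from 50.9 to 63.0, and no own-class member of the adhesion list passed 2-fold (0 of 6). Hemoglobin genes, RNA of red cells, were lower in this class (Hbb-bs 5984 to 1567 CPM), and after ligation 99.5% of the Hbb-bs UMIs came from 1 barcode. Counts in this class depended on the cell filter: with at most 10% mitochondrial UMIs, 141 genes rather than 389 were at least 2-fold higher and 244 rather than 167 lower, so that most called genes were then lower, the median mitochondrial share of endothelial-like cells being 10.5% in sham and 7.44% after ligation.

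In fibroblast-like cells Mt1, Mt2, Tnc and Timp1 were among the highest-ranked genes after ligation, and 6 of 25 matrix genes were at least 2-fold lower. Mt2 and Mt1, which bind metal and rise with oxidative stress, went from 576 to 2300 CPM and from 1302 to 4893 CPM, and 80.7% of the cells held a Mt2 UMI after ligation against 53.4% in sham (64.5% and 25.1% thinned); in neutrophil-like cells the shares were 1.47% and 1.49%. Tnc, the matrix protein tenascin C (chromosome 4), went from 37.2 to 265 CPM (7.13-fold; log2 2.83, 2.59 to 3.09). Timp1, an inhibitor of metalloproteinases, went from 824 to 3172 CPM, Angptl4 from 67.5 to 313 CPM and Asns, asparagine synthetase, from 20.7 to 133 CPM. Tnfrsf12a, the TWEAK receptor, went from 61.2 to 266 CPM. Over all measured genes in this class 4.17% were at least 2-fold higher and 9.74% lower. Of 14 oxidative stress genes 8 were at least 2-fold higher and 1 lower. Of 20 fibroblast activation genes 8 were higher and 1 lower, the last Postn (249 to 118 CPM). Inside the largest cluster, described below, these counts were 2 of 13 higher for oxidative stress (median log2 ratio 0.25) and 3 of 14 higher and 2 lower for activation (0.40). Among chemokines, Ccl2 went from 345 to 1307 CPM, Cxcl1 from 72.8 to 533 CPM and Cxcl5 from 391 to 822 CPM; Cxcl2, at 16.9 and 575 CPM, is far higher in other cells (neutrophil-like 16673 CPM after ligation). Neutrophil marker RNA in these cells went from 35 to 1017 CPM, and its part in such genes was not tested.

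The matrix list had 6 of 25 genes at least 2-fold lower and 0 higher, against 9.74% of all measured genes in this class lower. Among own-class genes 6 of 24 of the list were lower, against 8.62% of all. The list had a median log2 ratio of -0.79, against -0.21 over all genes in this class. Lum, a collagen-binding proteoglycan, went from 1201 to 453 CPM, Ogn from 552 to 210, Col14a1 from 126 to 30.8, and Dcn, decorin, from 14285 to 8270 CPM. Ptn, Itih5, Dkk3, Wif1 and Tbx20 were 4.35- to 10.1-fold lower, of which Dkk3, Wif1 and Tbx20 lead a cluster that held 24.5% of fibroblast-like cells in sham and 5.35% after ligation. A cluster led by Cxcl5, Ptx3, Cxcl1 and Mt2 held 6.51% and 40.1%. In the largest fibroblast-like cluster, led by Clec3b and Dpep1 (305 sham and 97 ligation cells), the matrix list had a median of -0.10 with 1 of 25 genes past 2-fold, Col1a1 stood at -0.07 and Dcn at 0.16, while Mt1 stood at 1.49, Mt2 at 1.61, Ccl2 at 1.78 and Timp1 at 0.56. Cxcl1 (0.38, -0.43 to 1.14) was not separated from 0 there, and Cxcl5 was lower (-2.07). Inside the same cluster Ptn stood at -0.67, Itih5 at -0.96, Dkk3 at -0.71 and Tbx20 at -0.17, each under 2-fold. Wif1 had too few UMIs in that cluster to be measured. Over the whole class, Wif1 and Tmem100 were lower in the knockout pair but higher after ligation in the wild-type pair (log2 0.88 and 0.64). Thinning cells to 1500 UMIs left 167 higher and 140 lower genes.

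**Figure D5:**
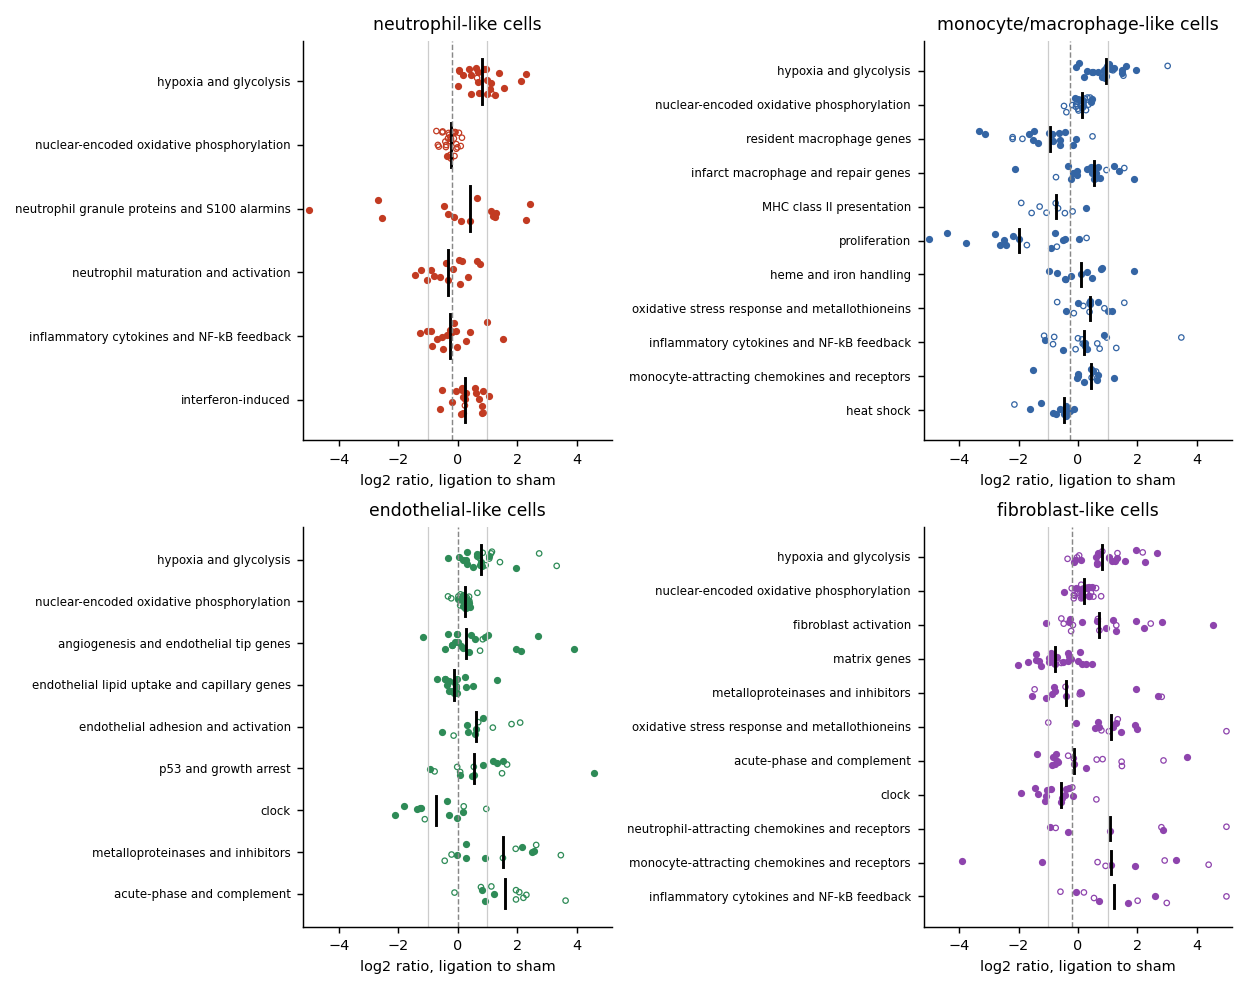
Log2 ratio of ligation to sham for each measured gene of the lists described, by class; each point is a gene, filled where its own-class rule holds and open otherwise, a black bar the list median and the dashed line the median of all genes in the class. Values beyond 5 in either direction are drawn at 5 or -5, and grey lines mark 2-fold: the hypoxia and glycolysis medians lie between 0.77 and 0.95.

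Values of the wild-type pair at 24 h, which has its own sham library, are set beside these. Of the genes at least 2-fold higher in the knockout and measured in both pairs, 76.7% were so in wild type in neutrophil-like cells, 65.2% in monocyte/macrophage-like, 49.1% in endothelial-like and 64.1% in fibroblast-like cells. The same share of lower genes was 52.2%, 32.3%, 26.8% and 19.1%. Taken the other way, 32.9%, 34.9%, 47.2% and 51.2% of wild-type higher genes were higher in the knockout. Of wild-type lower genes, 16.6%, 58.5%, 17.8% and 42.7% were lower. Over all genes measured in the wild-type pair, 307 of 5989 were at least 2-fold higher and 494 lower in neutrophil-like cells. The counts were 262 and 364 of 9784 in monocyte/macrophage-like, 364 and 246 of 10028 in endothelial-like and 467 and 418 of 9274 in fibroblast-like cells. The log2 ratio of Hmox1 in monocyte/macrophage-like cells was 1.90 in knockout and 1.59 in wild type, and that of Pgf in endothelial-like cells 3.92 and 4.55. Cdkn1a in endothelial-like cells stood at 1.52 and 3.13. Whether the responses of the genotypes differ was not tested.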

How the data were processed

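The 6 pooled 10x 3′ libraries were deposited as count matrices; per the submitters' processing notes, the authors made the counts (UMIs per gene and cell, not normalized) with Cell Ranger 6.0.0 on mm10. From these, cells with at least 200 genes and at most 20% mitochondrial UMIs were kept. Likely doublets were removed by Scrublet score, taking the top-scoring 0.8% for every 1000 cells a library holds; Scrublet's own cutoff would have marked 0 to 58 cells a library. The 6 libraries were clustered together (scanpy 1.11.5, leidenalg 0.10.2; 2000 variable genes, 30 components, 20 neighbours, resolution 1) and clusters named from marker lists. UMIs were summed per class and library. Genes needed 50 UMIs over the pair, a count of 0 was set to 3 for ratios, and at least 2-fold was called. Shares have exact binomial intervals, their differences Newcombe intervals, and ratios exact conditional Poisson intervals. Named genes were the 10 highest-ranked in each direction per class among genes reaching 100 CPM, own-class, and with at most 10% of UMIs in 1 barcode. Members, lists and rules were chosen with earlier results of these data known. In Poisson counts simulated for each class, 95.6% to 96.0% of genes fell inside their interval. The intervals assume the same Poisson model, so this checks the calculation only. It does not cover genes whose UMIs sit in a few cells.

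Total deposited UMIs were 34691519 in sham and 40501671 in ligation.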

Additional observations from a re-analysis of the deposited data

Results flagged for a closer look

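Some genes moved at least 2-fold in opposite directions after ligation in the knockout and wild-type pairs. Higher in knockout and lower in wild type were 1, 1, 2 and 2 genes in neutrophil-like, monocyte/macrophage-like, endothelial-like and fibroblast-like cells. The reverse held for 3, 11, 3 and 9. The genes measured in both pairs were 5973, 9725, 9911 and 9045 in these classes. Those given below are the ones that belong to the gene lists or to the highest-ranked genes; none of these differences was tested, since each group is 1 pool. Values are log2 ratios of ligation to sham. In neutrophil-like cells Ngp, a secondary granule protein, was -2.69 in knockout and 1.40 in wild type, with 89.2% and 82.6% of the sham UMIs in 1 barcode. In monocyte/macrophage-like cells the chemokine scavenger receptor Ackr3 was -1.16 and 1.57, and the chemokine Ccl8 1.21 and -1.51. The growth factor Csf1 was -1.14 and 1.18 in this class, and the cytokine Lif -1.12 and 1.30. Ackr3 and Csf1 did not meet the own-class rule. Endothelial marker RNA in this class was at 1185 and 251 CPM in knockout and 452 and 443 CPM in wild type. Its part in these values was not tested. Ccl8 was found in 27 sham and 45 ligation knockout cells, and Lif in 17 and 29. In knockout sham 1 barcode held 27.5% of the Ccl8 UMIs, and 1 held 19.0% of the Csf1 UMIs. In endothelial-like cells Hamp, hepcidin, was -3.84 and 1.45. It had 222 UMIs in knockout sham, 98.2% of them in 1 barcode, and 0 after ligation. It was thus at least 14.3-fold lower against the floor of 3 counts over the class. In wild type 1 barcode held 79.2% of the sham UMIs of Hamp, and 1 held 87.0% of the ligation UMIs. In fibroblast-like cells the transcription factor Maf was -1.78 and 1.52, with 60.9% of its knockout sham UMIs in 1 barcode. Maf did not meet the own-class rule there. The replication gene Mcm2 was 1.37 and -1.22 in this class, on 31 and 44 knockout UMIs.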

How the results depend on the processing

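No paired analysis was possible because each group is 1 pooled library. No difference in shares or named-gene ratio changed sign under the alternatives run. List medians that did were those of heme and iron genes in monocyte/macrophage-like cells (0.10, and -0.17 as a mean over cells), of lipid and capillary genes in endothelial-like cells (-0.13, up to 0.08), and of acute-phase genes (-0.15, up to 0.22) and metalloproteinases (-0.41, up to 0.07) in fibroblast-like cells. The balance of higher against lower genes turned in 3 classes: in neutrophil-like cells from 191 and 262 to 301 and 146 when centred and to 155 and 140 when thinned, in fibroblast-like cells from 389 and 909 to 615 and 553 and to 167 and 140, and in endothelial-like cells from 389 and 167 to 141 and 244 with at most 10% mitochondrial UMIs. Of the other values recomputed, 372 of 445 list medians and 805 of 958 named-gene ratios stayed within 0.25 log2 units (medians) or within their counting interval (genes). Differences in shares (points) with at most 10% mitochondrial UMIs were 43.0 for leukocytes, 37.1 for neutrophil-like, 3.32 for monocyte/macrophage-like, -28.9 for endothelial-like and -8.68 for fibroblast-like cells; with at least 1000 UMIs per cell they were 53.2 for leukocytes and -44.4 for endothelial-like cells. Counts of genes at least 2-fold higher and lower follow, each by class. Centred on the median gene, they were 301 and 146 (neutrophil-like), 306 and 447 (monocyte/macrophage-like), 615 and 553 (fibroblast-like). With a minimum of 10 UMIs they were 438 and 1024, 355 and 1696, 923 and 496 (endothelial-like), 677 and 1850. With a minimum of 200 they were 81 and 64, 106 and 298, 148 and 49, 223 and 296. Among own-class genes they were 117 and 129, 85 and 310, 165 and 108. Thinned to 1500 UMIs, lower genes were 140 (neutrophil-like), 369 (monocyte/macrophage-like) and 140 (fibroblast-like), and higher genes 219 (endothelial-like) and 167 (fibroblast-like). Taking the mean over cells gave 256 lower genes in endothelial-like and 533 in fibroblast-like cells. Without doublet removal 551 were lower in neutrophil-like cells, and with at most 10% mitochondrial UMIs 141 were higher in endothelial-like cells. The cause of these shifts was not tested. Genes under about 50 UMIs over the pair cannot be read at this depth.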

Other observations

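Smaller classes, with at least 50 cells in both libraries, were looked at after seeing the data, and differences between classes were not tested. In pericyte-like cells (81 sham and 83 ligation cells) 8 of 13 hypoxia and glycolysis genes were at least 2-fold higher and 0 lower (median log2 ratio 1.30), against 4.18% of 1724 measured genes higher. Ednrb, the endothelin B receptor, went from 43.5 to 970 CPM in them (log2 4.48, 3.61 to 5.50), while Aspn and Mgp, matrix proteins, went from 1164 to 451 and from 2553 to 1107 CPM. In smooth muscle-like cells (228 and 65 cells) 0 of 14 hypoxia and glycolysis genes were at least 2-fold higher and 1 was lower, with a median of 0.16, against 1.1% higher and 2.1% lower of 4096 measured genes. In dendritic-like cells (69 and 138 cells) 9 of 15 were higher (median 1.07), against 2.18% of 3759 measured genes, and the sterol synthesis genes Idi1, Fdps and Msmo1 went from 137 to 36.0, from 277 to 110 and from 104 to 40.3 CPM. The complement genes C1qa, C1qb and C1qc, typical of macrophages, were also higher in dendritic-like cells, C1qa from 93.4 to 602 CPM. The summed level of 10 neutrophil marker genes went from 91.0 to 3756 CPM in pericyte-like, from 50.1 to 4407 CPM in smooth muscle-like and from 86.8 to 1145 CPM in dendritic-like cells, and its part in these results was not tested.

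Cardiomyocyte-like cells passed the mesh in small numbers (52 and 64 cells). Their metallothionein Mt1 went from 3829 to 7730 CPM, and the sarcomere gene Myl2 from 20883 to 14152 CPM. The same summed level in them was 56.9 CPM in sham and 10958 CPM after ligation. That of 10 endothelial marker genes was 5966 and 311 CPM. All 6 measured resident macrophage genes were at least 2-fold higher (median log2 ratio 5.26), against 8.0% of 850 measured genes. The part of such RNA in their other values, Mt1 and Myl2 among them, was not tested.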
